A study of Mus musculus with 8 samples.

Results

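The Polycomb genes analysed here encode the subunits of Polycomb repressive complexes 1 and 2 (PRC1 and PRC2), together with enzymes that act against them, and were chosen by name. A probe set, the group of probes that reports 1 transcript on an Affymetrix array, was taken where the platform annotation gave it a single gene symbol equal to a listed gene. Of 35 listed genes 34 were found, through 89 of the 45037 probe sets on the array, and 28 of the 34 had several probe sets. Rybp was the gene without such a probe set, since its probe sets carry a second symbol, and it was not analysed here. The genes were sorted by role into PRC2 (11 genes), PRC1 (19 genes measured) and opposing enzymes (4 genes).

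The cells were 32Dcl3, an established line of mouse myeloid progenitors. Interleukin-3 (IL-3) keeps it dividing, and granulocyte colony-stimulating factor (G-CSF) lets it mature into neutrophil-like cells. One culture had been transduced with the empty retroviral vector pMYs-IG (mock) and the other with pMYs-FLAG-ASXL1-MT-IG, which carries a FLAG-tagged mutant of ASXL1 (ASXL1-MT). Each culture was profiled while in IL-3 and again 2, 6 and 24 h into G-CSF treatment, on a single array per condition, 8 arrays in all. The labels do not say whether the cultures were clones or pools, from which species the ASXL1 cDNA came, or whether separate cultures were used for the time points. Fits over the pair of cultures or over the 4 time points therefore stand in for replicates, the p-values may measure technical spread only, and the number of arrays limits the precision.

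PRC2 places methyl groups on lysine 27 of histone H3 (H3K27) through EZH1 or EZH2, held in an active complex by EED and SUZ12. PRC1 places ubiquitin on histone H2A through RING1 or RNF2, paired with a PCGF protein. Canonical PRC1 adds CBX proteins, which read H3K27 methylation, and PHC proteins, which polymerise, whereas variant PRC1 adds RYBP or YAF2 in their place. KDM6A and KDM6B remove H3K27 methylation, and KMT2A and KMT2D methylate lysine 4 of H3 (H3K4), a mark of active genes. ASXL1 belongs to the complex that removes the PRC1 mark, and mutant ASXL1 has been linked to lower H3K27 methylation in myeloid cells.

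The promoters of 7 genes on which the results turn are shown, because they hold the PHC and EZH paralogs, which are described side by side, and Bmi1 and Pcgf6, which fell by more than the other members called at 24 h. Each is the 250 bases before the RefSeq start in mouse build GRCm38.p6, read on the strand of the gene, and capitals mark any match to the motifs named after the sequences. Phc1 lies at chr6:122340228-122340477 (-), Phc2 at chr4:128654452-128654701 (+) for the most upstream of its 3 listed starts, and Phc3 at chr3:30969416-30969665 (-). Bmi1 lies at chr2:18676768-18677017 (+), Pcgf6 at chr19:47050907-47051156 (-), Ezh1 at chr11:101226464-101226713 (-) and Ezh2 at chr6:47595031-47595280 (-).
Phc1: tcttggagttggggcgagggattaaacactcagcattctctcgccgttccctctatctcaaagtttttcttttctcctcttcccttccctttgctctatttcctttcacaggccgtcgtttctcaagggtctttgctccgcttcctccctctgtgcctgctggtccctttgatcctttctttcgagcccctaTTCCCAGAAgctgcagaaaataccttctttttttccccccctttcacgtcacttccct
Phc2: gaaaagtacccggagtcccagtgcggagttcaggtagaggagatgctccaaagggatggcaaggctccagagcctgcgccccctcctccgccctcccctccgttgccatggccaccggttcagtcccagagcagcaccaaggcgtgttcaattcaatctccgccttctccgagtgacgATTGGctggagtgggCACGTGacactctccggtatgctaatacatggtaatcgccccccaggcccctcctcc
Phc3: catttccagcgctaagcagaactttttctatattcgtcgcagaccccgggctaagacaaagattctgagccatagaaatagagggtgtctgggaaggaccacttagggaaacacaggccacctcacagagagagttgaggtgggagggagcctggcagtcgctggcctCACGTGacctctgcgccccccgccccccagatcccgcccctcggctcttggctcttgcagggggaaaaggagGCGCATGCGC
Bmi1: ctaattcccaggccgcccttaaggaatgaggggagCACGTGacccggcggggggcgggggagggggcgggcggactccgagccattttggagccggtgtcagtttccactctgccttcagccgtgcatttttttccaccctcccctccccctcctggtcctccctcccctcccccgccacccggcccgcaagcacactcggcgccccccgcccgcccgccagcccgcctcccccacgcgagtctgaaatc
Pcgf6: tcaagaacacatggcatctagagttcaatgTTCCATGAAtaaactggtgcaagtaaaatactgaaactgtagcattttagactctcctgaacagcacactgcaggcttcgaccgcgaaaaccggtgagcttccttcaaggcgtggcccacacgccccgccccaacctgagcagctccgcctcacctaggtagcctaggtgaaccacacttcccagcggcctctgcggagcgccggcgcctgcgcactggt
Ezh1: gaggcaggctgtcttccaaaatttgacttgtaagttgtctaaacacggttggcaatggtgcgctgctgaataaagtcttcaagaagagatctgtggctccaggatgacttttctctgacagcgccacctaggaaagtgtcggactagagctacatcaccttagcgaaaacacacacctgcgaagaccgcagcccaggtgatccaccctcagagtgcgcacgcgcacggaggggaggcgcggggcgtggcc
Ezh2: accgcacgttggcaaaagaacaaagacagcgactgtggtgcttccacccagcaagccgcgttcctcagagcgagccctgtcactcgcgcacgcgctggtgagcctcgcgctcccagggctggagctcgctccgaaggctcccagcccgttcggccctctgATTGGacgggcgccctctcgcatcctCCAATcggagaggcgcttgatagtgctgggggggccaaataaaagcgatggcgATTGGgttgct

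RefSeq listed 42 starts for 30 of the 34 genes, and 7 motifs were searched on both strands of the 250 bases before each. The E box CACGTG, bound by MYC and MAX among others, was found before 8 of the 42 starts and in 6.02% of all 32851 promoters listed. Those genes were Bmi1, Cbx6, Cbx8, Kdm6a, Pcgf2, Phc2, Phc3 and Rbbp4. The GAS motif TTCNNNGAA, to which STAT factors bind, was found before 3 starts (Kmt2d, Pcgf6 and Phc1) and in 7.02% of all promoters. CCAAT was found before 14 starts and in 33.8% of all, 3 times before Ezh2 and not before Ezh1. The E2F motif TTTCCCGC was found before Phf19 and Suz12 (0.895% of all promoters), TTTGGCGC before none (0.417%), the ETS motif CCGGAAGT before none (2.88%) and the palindromic NRF1 motif before Phc3 (0.782%). None of the motif matches in the 7 promoters shown overlapped another. A match is a description of the letters and was not tested as a binding site.

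Values are log2 expression minus the median of the same probe set over the 8 arrays, as the deposited table is centred in this way. They show how a gene moved and cannot be compared as levels between genes. The level before centring was estimated from the rounding step of the numbers, and it mainly separates probe sets above and below 8 on the log2 scale. Of the 34 genes 27 had a level of 8 or more, and Phf1, Phf19, Pcgf2, Cbx7, Cbx8, Phc1 and Phc3 were dimmer. All 34 passed the filter on dim genes, as did 13704 of 18193 genes on the array. Of 9 myeloid progenitor and granulocyte markers, 8 (Mpo, Elane, Prtn3, Ctsg, Csf3r, Csf2rb, Il3ra and Spi1) had an estimated level of 8 or more, as the label of the line implies. No erythroid marker of 3 on the array and no lymphoid marker of 5 did, against 2 of 5 macrophage markers, 3 of 6 markers of mast cells, basophils and eosinophils, and 1 of 5 fibroblast markers. The Asxl1 probe set chosen for the gene averaged 0.28 in mock and -0.06 in ASXL1-MT cells. Another averaged 0.03 and -0.01, and the last, a dimmer one, -0.54 and 0.14, in the opposite direction. This does not check the label, since the origin of the cDNA is not given.

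**Figure D1:**
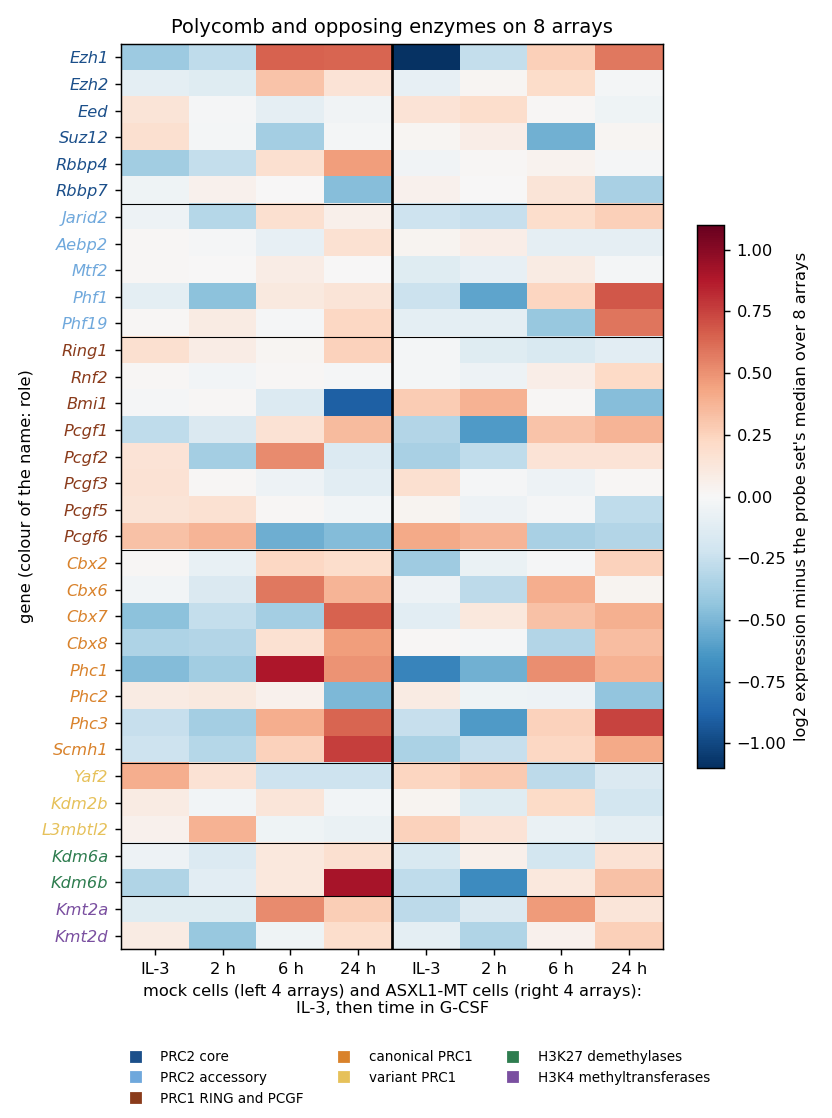
Log2 expression minus the median of the probe set over 8 arrays (colour) for the 34 genes (rows, grouped by role) in the mock and the ASXL1-MT culture, under IL-3 or 2, 6 and 24 h into G-CSF (columns, 1 array each). The rows of Ezh1, Phc1, Phc3, Scmh1 and Kmt2a turn from blue to red after 2 h in both cultures, and those of Pcgf6 and Yaf2 from red to blue.

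The first question was which Polycomb genes move as the cytokine is switched. After 24 h in G-CSF, 5 of the 34 genes rose and 5 fell. Ezh1, Phc1, Phc3, Scmh1 and Kmt2a rose, and Rbbp7, Bmi1, Pcgf6, Phc2 and Yaf2 fell. Of all 13704 genes tested 23.2% were called at 24 h (limma, Benjamini-Hochberg adjusted p under 0.05), 12.9% higher and 10.4% lower, so the 10 of 34 called here are a share near the background. The median log2 difference of the 34 was 0.20, against 0.09 over all genes tested. After 6 h, 3 rose (Ezh1, Phc1 and Kmt2a) and 3 fell (Suz12, Pcgf6 and Yaf2), against 13.9% of all genes called (7.89% higher and 6.04% lower), with a median of 0.10 against 0.11. After 2 h limma called none of the 34 and none of all genes (0%), with 1 of 34 and 1067 of 13704 at an unadjusted p under 0.05. With any 1 of the 8 arrays left out no member was called at 6 h, and at 24 h the calls were none when an array of IL-3 or of 24 h was missing, 3 (Bmi1, Pcgf6 and Phc1) without either 6 h array and 6 without either 2 h array.

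By class at 24 h, 1 of 11 PRC2 genes rose and 1 fell, 3 of 19 PRC1 genes rose and 4 fell, and 1 of 4 opposing enzymes rose and none fell. Their median log2 differences were 0.16, 0.11 and 0.34. Over all genes tested 12.9% were called higher and 10.4% lower at 24 h, at a median of 0.09. At 6 h the counts were 1 up and 1 down for PRC2, 1 up and 2 down for PRC1, and 1 up for the opposing enzymes. The 6 h medians were 0.15, 0.09 and 0.25, against 0.11 over all genes tested, of which 7.89% were called higher and 6.04% lower. The roles within PRC1 had different medians at 24 h: 0.69 for the 8 canonical subunits, of which 3 rose and 1 fell, -0.12 for the 8 RING and PCGF proteins, of which 2 fell, and -0.23 for the 3 variant subunits, of which 1 fell. Bmi1, itself a canonical subunit (-0.82 ± 0.10), was sorted with the RING and PCGF proteins, so these medians depend on the sorting. Among the genes sorted as canonical, Cbx7, Cbx8, Phc1 and Phc3 are dim. These counts and medians describe the groups, and the differences between them were not tested. Cell type markers, both of the line's own type and of others, moved over the same interval. At 24 h 8 of 9 progenitor and granulocyte markers were higher, at a median log2 difference of 1.38. So were 5 of 5 tested mast cell, basophil and eosinophil markers, at a median of 2.26. Of 4 tested macrophage markers 3 rose, at a median of 1.09 over the 4, and of 2 tested erythroid markers 1 rose and 1 fell (Klf1, at -1.12). Of 24 DNA replication genes 2 fell (Mcm2 and Rfc4) and 18 had a negative difference, at a median of -0.21. In bulk samples a change in the share of a cell type and a change in RNA per cell cannot be told apart, and the part of these lists in the Polycomb values was not tested.

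**Figure D2:**
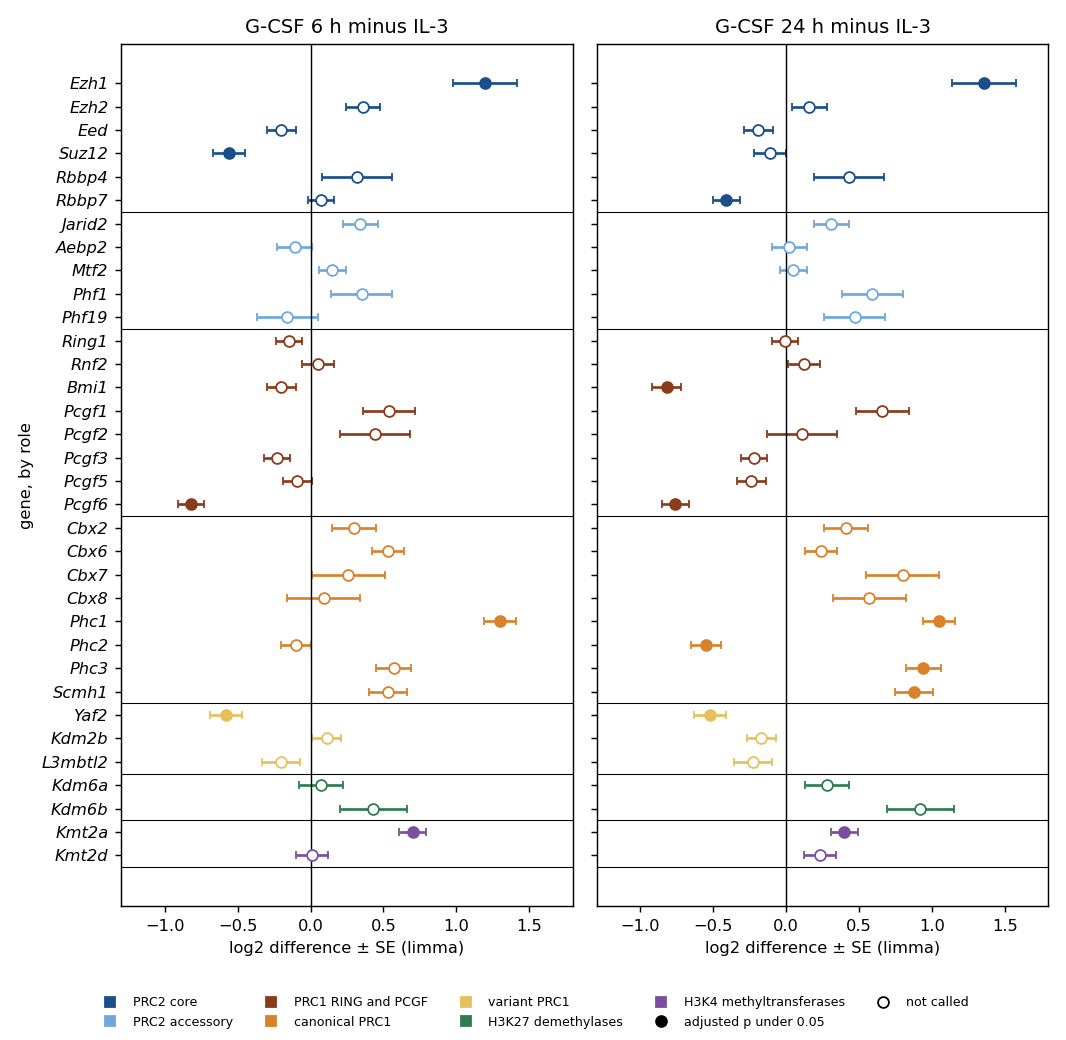
Log2 difference from IL-3 after 6 h (left) and 24 h (right) in G-CSF for the 34 genes, with bars for the standard error from limma over the pair of cultures. Filled points passed an adjusted p of 0.05; 6 are filled at 6 h and 10 at 24 h.

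Among the PRC2 core genes, the methyltransferase paralogs Ezh1 and Ezh2 had different values. Ezh1 measured -0.40 in mock cells under IL-3, then -0.28, 0.65 and 0.64 at 2, 6 and 24 h of G-CSF, and -1.09, -0.26, 0.26 and 0.58 in ASXL1-MT cells. All 4 arrays at 6 and 24 h lay above all 4 arrays of IL-3 and 2 h. It rose by 1.20 ± 0.22 (standard error, SE) at 6 h (adjusted p = 0.0416) and 1.36 ± 0.22 at 24 h (adjusted p = 0.0231). Averaged over its 4 probe sets, of which the other 3 are dim, it measured 1.22 at 6 h (adjusted p = 0.0932) and 1.47 at 24 h (adjusted p = 0.0514), and was no longer called.

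Ezh2, the paralog that proliferating cells mainly use, measured -0.11, -0.13, 0.31 and 0.15 in mock cells, in the same order of conditions as used throughout, and -0.09, 0.02, 0.20 and -0.02 in ASXL1-MT cells. Its 6 h arrays were the highest of each culture. The log2 difference was 0.36 ± 0.12 at 6 h (adjusted p = 0.127) and 0.16 ± 0.12 at 24 h (adjusted p = 0.383). The 95% interval at 24 h ran from -0.16 to 0.48, below that of Ezh1 (0.76 to 1.95). The difference between the paralogs was not tested.

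The scaffold subunits Eed and Suz12 stayed near their medians in most arrays. Eed, which binds methylated H3K27, measured 0.14, -0.01, -0.10 and -0.04 in mock cells and 0.15, 0.19, 0.01 and -0.05 in ASXL1-MT cells, with a difference of -0.19 ± 0.10 at 24 h (adjusted p = 0.243). Suz12, which holds the core together, measured 0.18, -0.02, -0.37 and -0.02 in mock cells and 0.02, 0.07, -0.53 and 0.02 in ASXL1-MT cells. The 6 h array was the lowest of each culture, and the gene fell by 0.56 ± 0.11 at 6 h (adjusted p = 0.0496). That fall rested on the chosen probe set: 3 other bright probe sets of Suz12 had 6 h differences of -0.14, -0.13 and -0.18, and with all its probe sets averaged Suz12 was not called (-0.36, adjusted p = 0.267).

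The histone chaperones Rbbp4 and Rbbp7, which PRC2 shares with other chromatin complexes, differed in their values. Rbbp7 measured -0.05, 0.05, 0.00 and -0.47 in mock cells and 0.05, -0.00, 0.14 and -0.36 in ASXL1-MT cells. Its low values were those at 24 h, and it fell by 0.41 ± 0.09 (adjusted p = 0.0481), close to the threshold. A second quantile normalization ended the call (adjusted p = 0.0699), and so did averaging its probe sets (adjusted p = 0.0689). Rbbp4 measured -0.38, -0.26, 0.18 and 0.46 in mock cells and between -0.04 and 0.04 in ASXL1-MT cells, so that its 24 h difference of 0.43 ± 0.24 (adjusted p = 0.282) came from the mock culture. The 3 other probe sets of Rbbp4 gave 24 h differences between -0.02 and 0.05.

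None of the 5 accessory subunits of PRC2, which direct the complex to its sites, was called at any time. Jarid2, which recruits and stimulates PRC2, measured 0.34 ± 0.12 at 6 h (adjusted p = 0.15) and 0.31 ± 0.12 at 24 h (adjusted p = 0.152). In the chosen probe set the 4 arrays at 6 and 24 h lay above the 4 others, and the 3 probe sets of Jarid2 gave 24 h differences of 0.31 to 0.37. At 6 h they gave 0.34, 0.32 and 0.05. In the last of these the ASXL1-MT array at 6 h (-0.10) lay below the one in IL-3 (-0.07). The Polycomb-like proteins, which bind DNA and histone H3, measured 0.05 ± 0.09 (Mtf2), 0.59 ± 0.21 (Phf1) and 0.47 ± 0.21 (Phf19) at 24 h. The last 2 were dim, and in each the 24 h array of ASXL1-MT cells was the highest of the 8 (0.68 for Phf1 and 0.59 for Phf19). The zinc finger cofactor Aebp2 measured 0.02 ± 0.12, and its other bright probe sets gave 0.10, -0.20 and 0.23 at 24 h. At 6 h the chosen one gave -0.11 and these gave -0.23, -0.65 and -0.11, while a dim one gave 1.40. None of them was called.

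The E3 ligases of PRC1, Ring1 and Rnf2, were not called at any time in G-CSF. Ring1 measured 0.18, 0.08, 0.02 and 0.25 in mock cells and -0.02, -0.13, -0.17 and -0.12 in ASXL1-MT cells, with a 24 h difference of -0.01 ± 0.09 (95% interval -0.26 to 0.24). Rnf2, also known as RING1B, measured 0.01, -0.03, 0.01 and -0.01 in mock cells and -0.02, -0.06, 0.07 and 0.22 in ASXL1-MT cells, with a 24 h difference of 0.12 ± 0.11 (95% interval -0.18 to 0.41). These intervals leave room for changes of up to 0.26 and 0.41 on the log2 scale.

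Of the 6 PCGF proteins, whose identity defines the subtype of PRC1, Bmi1 and Pcgf6 fell. Bmi1 (PCGF4), a canonical subunit known for its part in stem cell self-renewal, measured -0.01, 0.01, -0.15 and -0.90 in mock cells and 0.28, 0.38, 0.01 and -0.47 in ASXL1-MT cells. The 24 h array was the lowest of each culture, with a fall of 0.82 ± 0.10 at 24 h (adjusted p = 0.0152), while the 6 h difference was -0.20 ± 0.10 (adjusted p = 0.27). Its other probe set gave -0.79 at 24 h. Pcgf6, found in a variant PRC1 with E2F6 and L3MBTL2, measured 0.32, 0.37, -0.54 and -0.48 in mock cells and 0.42, 0.37, -0.36 and -0.32 in ASXL1-MT cells. The 6 and 24 h arrays did not overlap those of IL-3 and 2 h, and the falls were 0.82 ± 0.09 at 6 h (adjusted p = 0.0202) and 0.76 ± 0.09 at 24 h (adjusted p = 0.0139). Its other probe sets measured -1.35 and -0.64 at 6 h and -1.06 and -0.15 at 24 h.

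The remaining PCGF genes were not called. At 24 h Pcgf1, a partner of KDM2B, measured 0.66 ± 0.18 (adjusted p = 0.0697), Pcgf2 0.11 ± 0.24, Pcgf3 -0.22 ± 0.09 and Pcgf5 -0.24 ± 0.10. The bright probe sets of Pcgf5 disagreed in sign at 24 h (-0.24 and 0.49), so its direction is uncertain. In a limma fit of every probe set the one not chosen was called higher (0.49 ± 0.10, adjusted p = 0.0443). The chosen one was not called there (adjusted p = 0.224).

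The polyhomeotic subunits of canonical PRC1, whose SAM domains link the complexes into chains, gave different directions. Phc1 measured -0.48, -0.38, 0.89 and 0.49 in mock cells and -0.73, -0.53, 0.51 and 0.38 in ASXL1-MT cells. Phc3 measured -0.25, -0.37, 0.40 and 0.64 in mock cells and -0.25, -0.62, 0.25 and 0.74 in ASXL1-MT cells. For both, all 4 arrays at 6 and 24 h lay above all 4 arrays of IL-3 and 2 h. Phc1 rose by 1.30 ± 0.11 at 6 h (adjusted p = 0.0152) and 1.05 ± 0.11 at 24 h (adjusted p = 0.0112). Phc3 rose by 0.94 ± 0.12 at 24 h (adjusted p = 0.0161) and measured 0.57 ± 0.12 at 6 h (adjusted p = 0.0564). Phc1 has a single, rather dim probe set, and Phc3 was not called when its probe sets were averaged (0.68, adjusted p = 0.0623) or with a variance prior that follows the level (adjusted p = 0.0687).

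Phc2 moved the other way. It measured 0.09, 0.11, 0.05 and -0.49 in mock cells and 0.09, -0.05, -0.06 and -0.43 in ASXL1-MT cells. The arrays at 24 h were the lowest of each culture, and Phc2 fell by 0.55 ± 0.10 (adjusted p = 0.0286). Its other probe set measured -0.52. The 95% intervals at 24 h were 0.75 to 1.34 for Phc1, 0.60 to 1.28 for Phc3 and -0.82 to -0.28 for Phc2. The E box stands before both Phc2 and Phc3 in the sequences above, and the GAS motif before both Phc1 and Pcgf6. Of the listed Phc2 starts only the most upstream, shown above, has the E box. A link between the motifs and the direction of change was not tested.

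Scmh1, a SAM domain protein bound to PHC subunits, measured -0.23, -0.31, 0.25 and 0.76 in mock cells and -0.35, -0.25, 0.23 and 0.42 in ASXL1-MT cells. The arrays at 6 and 24 h lay above the others, with a rise of 0.88 ± 0.13 at 24 h (adjusted p = 0.0201). Its 3 probe sets gave 24 h differences of 0.35, 0.88 and 0.95, and their mean was not called (0.73, adjusted p = 0.0831). None of the 4 CBX genes was called at 24 h, where Cbx2 measured 0.41 ± 0.15, Cbx6 0.24 ± 0.11, Cbx7 0.80 ± 0.25 (adjusted p = 0.0981) and Cbx8 0.57 ± 0.25. All 4 had positive differences at both 6 and 24 h. At 6 h Cbx6 measured 0.53 ± 0.11, just outside the threshold (adjusted p = 0.052).

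Of the variant PRC1 subunits, Yaf2 fell. Yaf2, a homolog of RYBP that binds RING proteins, measured 0.40, 0.16, -0.23 and -0.23 in mock cells and 0.24, 0.29, -0.29 and -0.16 in ASXL1-MT cells. The 6 and 24 h arrays lay below the other 4. The falls were 0.58 ± 0.11 at 6 h (adjusted p = 0.0471) and 0.52 ± 0.11 at 24 h (adjusted p = 0.0442); at 24 h the mean of both probe sets was -0.48 (adjusted p = 0.0602). L3mbtl2, a malignant brain tumour domain protein found with PCGF6, measured -0.23 ± 0.13 at 24 h, and Kdm2b, which binds unmethylated CpG islands, measured -0.17 ± 0.10; neither was called.

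**Figure D3:**
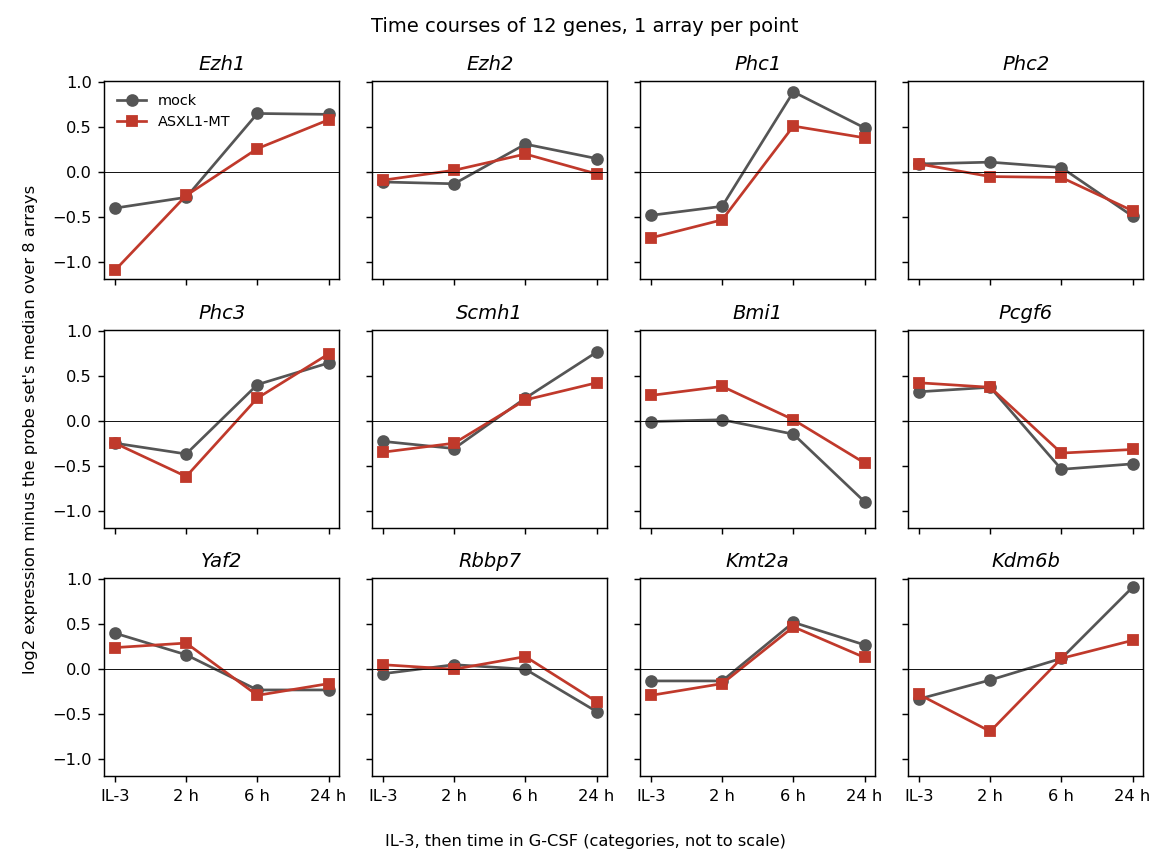
Log2 expression minus the median of the probe set over 8 arrays (vertical axis) under IL-3 and 2, 6 and 24 h into G-CSF (horizontal axis, not to scale) for 12 genes, in mock (grey circles) and ASXL1-MT cells (red squares), 1 array per point. Ezh1 and Phc1 are high from 6 h on, Pcgf6 and Yaf2 are low from 6 h on, and Bmi1, Phc2 and Rbbp7 are lowest at 24 h.

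Among the opposing enzymes, Kmt2a (MLL1), a methyltransferase needed for HOX gene expression in blood cells, measured -0.13, -0.13, 0.52 and 0.27 in mock cells and -0.29, -0.16, 0.47 and 0.13 in ASXL1-MT cells. The 4 arrays at 6 and 24 h lay above the other 4. Kmt2a rose by 0.70 ± 0.09 at 6 h (adjusted p = 0.0229) and 0.40 ± 0.09 at 24 h (adjusted p = 0.0429). Centring every array on its own median ended the 24 h call (0.32, adjusted p = 0.0748), as did a second quantile normalization (0.37, adjusted p = 0.0663). Its other probe set measured 0.71 at 6 h and 0.85 at 24 h.

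Kmt2d (MLL2 or MLL4), which acts mainly at enhancers, measured 0.09, -0.42, -0.05 and 0.19 in mock cells and -0.11, -0.33, 0.05 and 0.26 in ASXL1-MT cells. Its 2 h arrays were the lowest of each culture. The 2 h difference was -0.37 ± 0.11 (unadjusted p = 0.0317, adjusted p = 0.604; limma) and the 24 h difference 0.23 ± 0.11 (adjusted p = 0.231).

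The H3K27 demethylases were not called. Kdm6b (JMJD3), an inducible demethylase, measured -0.33, -0.12, 0.12 and 0.91 in mock cells and -0.28, -0.69, 0.12 and 0.32 in ASXL1-MT cells. Its 24 h arrays were the highest of each culture, and the 24 h difference was 0.92 ± 0.23 (adjusted p = 0.0577). Its other probe sets, both dim, gave 0.80 ± 0.29 and 0.88 ± 0.58. Kdm6a (UTX), the constitutive one, measured -0.06, -0.15, 0.12 and 0.18 in mock cells and -0.17, 0.06, -0.20 and 0.16 in ASXL1-MT cells. Its differences were 0.07 ± 0.15 at 6 h and 0.28 ± 0.15 at 24 h (adjusted p = 0.263). Another bright probe set of Kdm6a gave larger differences, 0.63 ± 0.15 at 6 h and 0.47 ± 0.15 at 24 h, neither of them called. A dim one gave 0.27 ± 0.32 and 0.50 ± 0.32, so the size of the Kdm6a change depends on the probe set.

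Between 6 and 24 h limma called none of the 34 genes, against 3.30% of all genes tested (1.97% higher and 1.33% lower), while 8 of the 34 and 3555 of 13704 genes had an unadjusted p under 0.05. Bmi1 measured -0.62 ± 0.10 (adjusted p = 0.0604), Rbbp7 -0.48 ± 0.09 (adjusted p = 0.0729), Phc2 -0.45 ± 0.10 (adjusted p = 0.0863) and Suz12 0.45 ± 0.11 (adjusted p = 0.102). With a stricter filter on dim genes, which changes both the variance prior and the number of genes adjusted over, these 4 and Kmt2a passed. The arrays of the cultures were also compared without a model. Both 6 h arrays lay above both IL-3 arrays for 16 of the 34 genes and below them for 9, against 37.5% and 24.2% of all genes (61.7% together). Both 24 h arrays lay above for 18 and below for 11, against 36.4% and 27.7% (64.2% together).

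All 4 arrays of 6 and 24 h lay above all 4 of IL-3 and 2 h for 10 of the 34 genes (Ezh1, Jarid2, Phf1, Pcgf1, Cbx6, Phc1, Phc3, Scmh1, Kdm6b and Kmt2a). They lay below for 3 (Pcgf6, Yaf2 and L3mbtl2). Over all genes tested 18.1% and 11.9% were separated in these directions, 30.1% together, so the 13 of 34 are a share near the background.

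**Figure D4:**
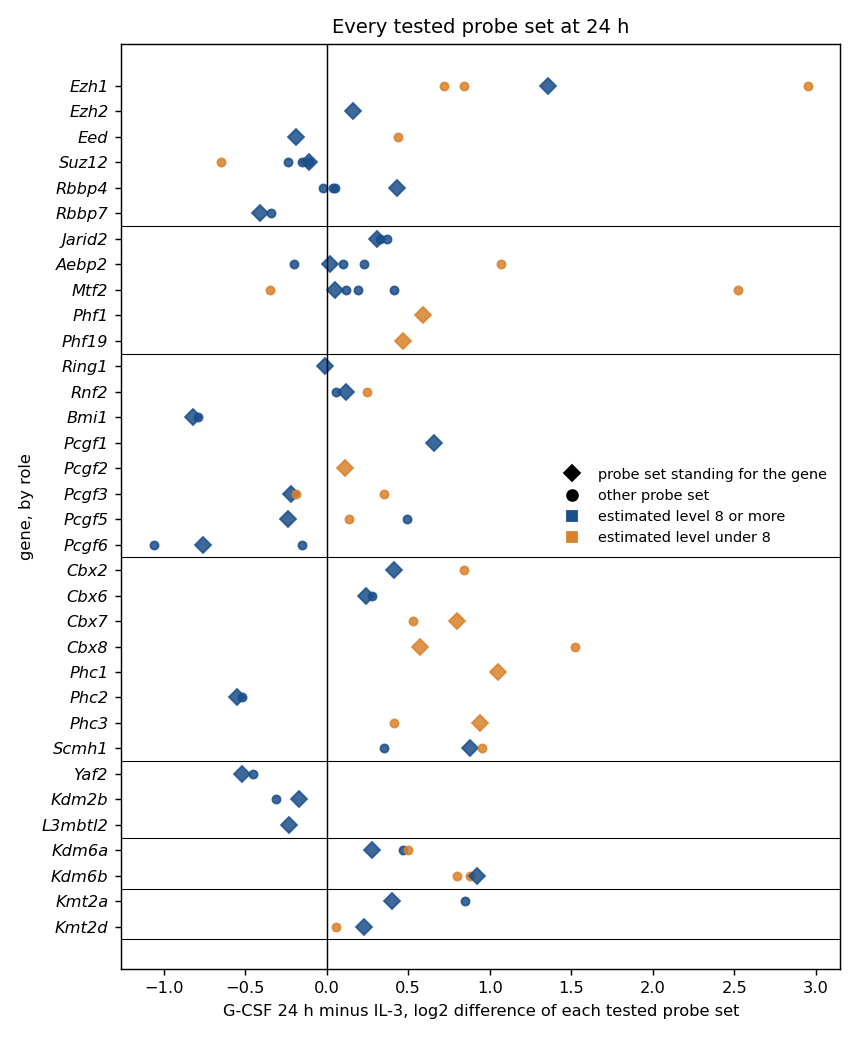
Log2 difference between 24 h in G-CSF and IL-3 for each of the 82 tested probe sets of the 34 genes (rows, grouped by role); diamonds mark the probe set standing for the gene and blue an estimated level of 8 or more. The probe sets of Bmi1, Rbbp7, Phc2, Yaf2, Jarid2 and Kdm6b lie close together, while those of Mtf2 and Ezh1 at a lower level reach 2.52 and 2.95.

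Mutant ASXL1 was compared with mock over the 4 time points, and limma called none of the 34 genes and none of all 13704 genes (0%). Each vector had a single culture, so an effect of mutant ASXL1 and a difference between the cultures cannot be told apart. The standard errors and intervals of this comparison do not measure the spread between cultures of the same vector. At an unadjusted p under 0.05 there were 3 of the 34 (Ring1, Bmi1 and Phc1) and 879 of all genes. The median log2 difference of the 34 was -0.05, against 0.00 over all genes. By class the medians were -0.03 for PRC2, -0.07 for PRC1 and -0.08 for the opposing enzymes, and the 34 differences ran from -0.28 to 0.31.

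Bmi1 was higher in ASXL1-MT than in mock cells at every time, by 0.29 in IL-3 and by 0.37, 0.16 and 0.42 after 2, 6 and 24 h. Its mean difference was 0.31 ± 0.07 (95% interval 0.11 to 0.51, unadjusted p = 0.0122, adjusted p = 0.736). Ring1 was lower at every time, by differences of -0.20, -0.21, -0.20 and -0.37, with a mean of -0.24 ± 0.06 (95% interval -0.42 to -0.07, unadjusted p = 0.0187, adjusted p = 0.736). Phc1 had differences of -0.25, -0.14, -0.38 and -0.11 and a mean of -0.22 ± 0.07 (95% interval -0.43 to -0.01, unadjusted p = 0.0412, adjusted p = 0.754). All 3 fail the correction over all genes.

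In all, 2 of the 34 genes (Bmi1 and Pcgf6, the latter by as little as 0.00 at 2 h) were higher in ASXL1-MT cells at all 4 time points and 5 (Ring1, Pcgf5, Cbx6, Phc1 and Kmt2a) were lower. Over all genes tested 8.34% were higher and 8.46% lower at all 4, 16.8% together, so the 7 of 34 are a share near the background. For PRC2, the writer of H3K27 methylation, the core genes had 95% intervals of -0.25 to 0.20 (Ezh2), -0.11 to 0.27 (Eed) and -0.26 to 0.17 (Suz12). Ezh1 had a wider one, -0.70 to 0.14, with its largest difference, -0.70, in IL-3. The other Ezh1 probe sets, all dim, had mean differences in the opposite direction (0.09 ± 0.23, 0.84 ± 0.89 and 0.75 ± 0.76). The intervals of the demethylases were -0.36 to 0.23 (Kdm6a) and -0.72 to 0.16 (Kdm6b). The Kdm6b differences were 0.05 in IL-3, -0.57 at 2 h, 0.00 at 6 h and -0.59 at 24 h. The other Kdm6b probe sets, both dim, had mean differences of 0.12 ± 0.41 and -0.01 ± 0.20.

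**Figure D5:**
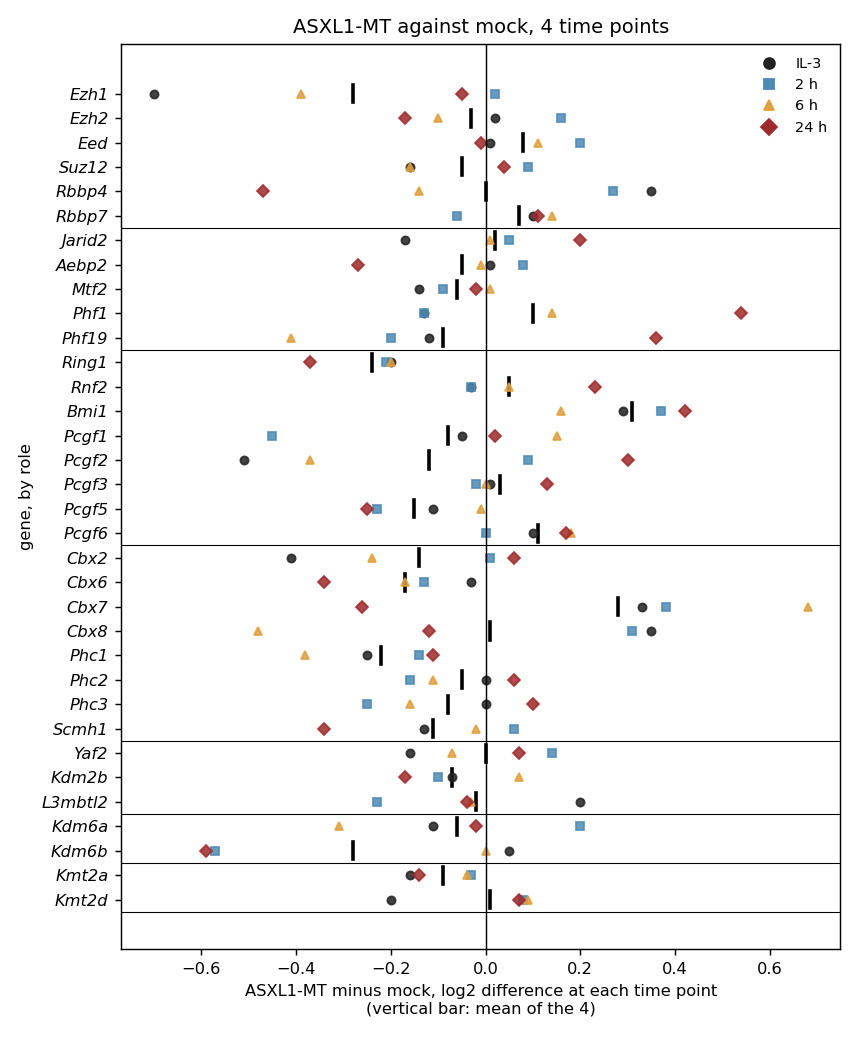
Difference between the ASXL1-MT and the mock culture (horizontal axis, log2) for the 34 genes (rows, grouped by role), with a symbol for each time point and a bar at the mean of the 4. All 4 symbols lie to the right for Bmi1 and to the left for Ring1, Pcgf5, Cbx6, Phc1 and Kmt2a.

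The difference between the cultures at 24 h was set against that at the other times, and limma called none of the 34 genes and none of all genes (0%), with 1 of 34 and 796 of 13704 at an unadjusted p under 0.05. That gene was Cbx7, where ASXL1-MT cells were higher than mock by 0.33, 0.38 and 0.68 in IL-3 and at 2 and 6 h and differed by -0.26 at 24 h (difference -0.73 ± 0.23, adjusted p = 0.854). Cbx7 is dim, and so are Phf19 (0.60 ± 0.20, adjusted p = 0.868) and Phf1 (0.58 ± 0.20, adjusted p = 0.872), which came next.

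Of 51 other genes of the Polycomb, PR-DUB (ASXL1 and its partners) and H3K4 methyltransferase systems, 43 were tested. At 24 h 6 of them rose and 5 fell, at a median of -0.03, a share near the 23.2% called over all genes. Among those called, the largest changes were in the H3K4 demethylase Kdm5c (1.40 ± 0.18), the MBD protein Mbd6 (0.97 ± 0.14), the casein kinase subunit Csnk2a1 (-0.88 ± 0.14), Asxl1 itself (0.87 ± 0.09), Kmt2e (0.84 ± 0.11), Setd1b (0.71 ± 0.12), the forkhead factor Foxk2 (-0.70 ± 0.09) and the sugar transferase Ogt (0.58 ± 0.10). At 6 h 3 rose (Kmt2e, Kdm5b and Setd1b) and 2 fell (Foxk2 and E2f6, at -0.48 ± 0.09), against 13.9% of all genes called. At 2 h and between the cultures limma called none of the 43, with 2 at an unadjusted p under 0.05 in each, against 1067 and 879 of all 13704 genes. E2F6 is a partner of PCGF6, which also fell at 6 h. L3mbtl2, found in the same complex, was not called at 6 h (-0.20 ± 0.13, limma adjusted p = 0.367), and E2f6 was not called at 24 h. A shared change of these partners was not tested. Of 30 genes known as Polycomb targets, mostly HOX genes, 13 passed the filter on dim genes. At 6 h 1 of the 13 rose, against 7.89% of all genes called higher. It was Gata4 (1.08 ± 0.17), a dim gene with an estimated level of 5.7. At 24 h and between the cultures limma called none of the 13. There 2 and 1 of the 13 had an unadjusted p under 0.05, against 5185 and 879 of all genes.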

How the data were processed

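Affymetrix intensities were captured by the authors with Microarray Suite per the labels, and RMA is named, with no version, in the submitters' processing notes. The deposited table was read as log2 expression minus each probe set's median over the 8 arrays. The log base is not given in the sources used here, nor are the centring and the scaling between arrays; under a natural log every difference would be larger. The level before centring was estimated from the rounding step of the 32-bit numbers, with a median absolute error of 0.621 on 8000 simulated probe sets and 97.2% on the correct side of 8. Only 84.8% fell on the correct side of the filter on dim genes.

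Of the probe sets, 34945 carried 1 gene symbol in the platform annotation, 932 several and 9160 none. Each gene was represented by its probe set with the highest level rounded to a whole unit, then the most specific type, then the first name. Genes whose second-highest array reached 5.81, the median level, were tested. In limma 3.58.1 (R 4.3.3; lmFit, eBayes) 1 additive fit on time point and vector left 3 degrees of freedom for the residual, and the variance prior added 1.08. An indicator for the 24 h array of ASXL1-MT cells left 2. All tests are two-sided, with Benjamini-Hochberg adjustment over all genes tested. On simulated data 200 of 13704 genes were changed and the others left unchanged. Changes of 2-fold were called in 0% (24 h) and 30% (between cultures) of them, and those of 4-fold in 68% and 72%. In the real data 3183 genes were called at 24 h, among them Kmt2a at 0.40 ± 0.09. The adjusted threshold is stricter where fewer genes change, so the simulated 24 h shares do not carry over to the real 24 h comparison. Alternatives covered scaling, the filter, the choice of probe set, the variance prior and each array left out.

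All 34 genes are named by role. Values of all 8 arrays are given for those called and for Ezh2, Eed, Rnf2, Ring1, Kdm6a, Kdm6b and Kmt2d, and up to 8 related genes are named in a comparison. The members, lists and tests were chosen with earlier results of these data known, the level estimate, motifs, printed promoters and counts of arrays that do not overlap after the values were seen, and the design had assumed uncentred values. Promoter sequences came from RefSeq (GRCm38.p6).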

Additional observations from a re-analysis of the deposited data

How the results depend on the processing

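Of 16 calls on single genes, 4 held under every alternative to scaling, filter, probe set choice and variance prior in which the gene was tested: Bmi1 and Pcgf6 at 24 h, and Phc1 at 6 and 24 h. The stricter filter left Phc1 and Phc3 out. Phc1 has a single probe set, so averaging probe sets could not change its own values. The fit of every probe set kept, for each gene, the probe set with the smallest p, which favours keeping a call. Over these alternatives 85 of 109 values kept their call and 24 did not, and none changed sign. Without the filter on dim genes 1 member was called at 6 h (Phc1) and 6 at 24 h; with the stricter filter 10 were called at 6 h and 5 between 24 and 6 h. The mean of all probe sets gave 5 at 24 h, and a variance prior that follows the level gave 4 between 24 and 6 h. Leaving out any single array ended every call at 6 h (0 to 0 members). At 24 h it left 0 to 6: 0 without any array of IL-3 or 24 h, 3 (Bmi1, Pcgf6 and Phc1) without either 6 h array and 6 without either 2 h array. Over all genes the 6 h count went from 1909 to 0 without any 1 array; 7 arrays leave fewer degrees of freedom. The member counts at 2 h and between the cultures stayed at 0 in every setting run, and those between 24 and 6 h at 0 with any array left out; over all genes the 2 h count reached 28 with the stricter filter. The 24 h indicator could not be fitted without either 24 h array. The additive fit already pairs the cultures at each time point, and the labels carry no replicate numbers for a further block. Scaling moved the median of all genes by less than 0.1.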
